A study of Rattus norvegicus with 6 samples.

Results

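The miR-10, miR-99, miR-100 and miR-125 microRNAs were followed in circulating exosomes of rat serum. They were taken by name as 7 rows of the deposited table, rno-miR-10a-5p, rno-miR-10b-5p, rno-miR-99a-5p, rno-miR-99b-5p, rno-miR-100-5p, rno-miR-125a-5p and rno-miR-125b-5p, out of 867 rows in all, and all 7 were listed and passed the filter of a mean of at least 10 reads per library. The 5 rows of miR-10, miR-99 and miR-100 are called the miR-10/99/100 set below and were compared with the 2 rows of miR-125.

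Exosomes are small vesicles that cells release and that carry microRNAs through the blood. The NXT-Exo libraries were from male Sprague-Dawley rats of 6 to 8 weeks on a normal diet, given the Naoxintong Capsule (NXT), a Chinese polyherbal preparation, by gavage at 1000 mg/kg/d. The Ctl-Exo library was from rats of the same strain, sex, age and diet, given saline at 5 mL/kg/d. Each group held 10 rats. The labels used here put 5 libraries in NXT-Exo and 1 library, Ctl-Exo 5, in Ctl-Exo, and columns of the table headed Ctl-Exo 1 to 4, which match none of these labels, were not used here. By their titles, dosing lasted 7 days in all samples, but a second label lists a duration that grows with the NXT-Exo number, from 7 to 11 days, and 11 days in Ctl-Exo 5. How the serum of the rats was divided among the libraries is not stated, so the spread between libraries may be technical. The listed reads per library ranged from 1168686 to 3781718 in NXT-Exo, with 1890463 in Ctl-Exo 5. NXT-Exo 1 stood apart from the other libraries, since the 2 arms of the liver microRNA miR-122 summed to 17427 CPM there, to 3308 to 6452 in NXT-Exo 2 to 5 and to 2203 in Ctl-Exo 5.

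A microRNA guides a silencing complex to messenger RNAs mainly through its seed, the bases 2 to 8 from its 5′ end, and most precursors give an abundant arm and a rarer partner arm. The genes of miR-10 lie in the Hox clusters, which pattern the body axis. The genes of miR-99 and miR-100 lie in ancient clusters with a let-7 gene and a miR-125 gene, and miR-125 is the vertebrate relative of the worm timing gene lin-4. All of these microRNAs are studied in blood vessels and blood formation, with miR-99 and miR-100 known as repressors of the growth kinase mTOR. Which question the study asked of these microRNAs is not given; the wider comparison asked which exosomal microRNAs differ after NXT.

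The mature sequences are shown because the families are defined by them. The seed is in capitals, and the letters are those of the deposited table, which writes T for U.
rno-miR-10a-5p: tACCCTGTagatccgaatttgtg
rno-miR-10b-5p: cCCTGTAGaaccgaatttgtgt
rno-miR-99a-5p: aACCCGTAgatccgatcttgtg
rno-miR-99b-5p: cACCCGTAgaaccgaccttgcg
rno-miR-100-5p: aACCCGTAgatccgaacttgtg
rno-miR-125a-5p: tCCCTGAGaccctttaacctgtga
rno-miR-125b-5p: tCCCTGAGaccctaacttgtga
Of the 7 sequences, 6 were present in the RefSeq table of assembly GRCr8 and all 6 were identical to it. The listed sequences held 4 seeds. The seed ACCCGTA was shared by miR-99a, miR-99b and miR-100, and the seed CCCTGAG by miR-125a and miR-125b, while miR-10a and miR-10b each had a seed of their own as listed. The miR-10/99/100 set therefore had no single seed shared by its 5 members in this table. The listed miR-10b sequence started 2 bases later than miR-10a, so that its bases 2 to 8 were read in another register. Laid on each other, miR-10a and miR-10b differed at 1 of the 21 bases they cover in common, T12A counted from the 5′ end of miR-10a. miR-99a and miR-100 differed at 1 of 22 bases, T16A, and miR-100 shared the run GTAGATCCGAA of 11 bases with miR-10a. miR-125a and miR-125b shared their first 13 bases, TCCCTGAGACCCT, and differed at 7 of the 22 bases compared. How reads with a shifted start or a mismatch were assigned is not given in the sources used here, so reads of miR-99a and miR-100 in particular may have been split between near-identical rows.

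The rat gene list of GRCr8 was used for neighbours alone, since the files were made on Rnor_6.0 and no coordinates were taken from it. Mir10a stood between Hoxb5 and Hoxb4, and Mir10b lay within the span of Hoxd4, next to Hoxd3. Mir99a stood in a row with Mirlet7c1 and Mir125b2, Mir100 with Mirlet7a-2 and Mir125b1, and Mir99b with Mirlet7e and Mir125a inside the span of Spaca6. Mature miR-125b can come from both Mir125b1 and Mir125b2, and its 5p reads cannot be told apart by gene.

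The levels are given as CPM, the reads of a row scaled to 1000000 listed reads of the library and corrected by its TMM factor. Each read covers a whole microRNA of 22 to 24 bases, so no length scaling was applied, and ligation in library preparation can favour some sequences, so ratios between microRNAs are ratios of reads and not of molecules. rno-miR-99a-5p was the most abundant of the 7 at 6908, 6913, 5859, 7821 and 7650 CPM in NXT-Exo 1 to 5 and 6378 CPM in Ctl-Exo 5. It ranked 24 of 867 rows by mean CPM. The Ctl-Exo 5 value lay inside the range of the NXT-Exo libraries, whose mean was 7030 ± 776 CPM (SD, n = 5).

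rno-miR-10a-5p, from the Hoxb cluster, was at 5800, 5877, 4366, 4399 and 5137 CPM in NXT-Exo 1 to 5 and at 4782 CPM in Ctl-Exo 5. rno-miR-10b-5p, from the Hoxd cluster, was at 3882, 4160, 3256, 3341 and 4081 CPM in NXT-Exo 1 to 5 and at 3734 CPM in Ctl-Exo 5. For both, NXT-Exo 1, 2 and 5 were above Ctl-Exo 5 and NXT-Exo 3 and 4 were below it. The NXT-Exo means were 5116 ± 729 CPM for miR-10a and 3744 ± 420 CPM for miR-10b (SD, n = 5).

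rno-miR-99b-5p, from the let-7e cluster, was at 2282, 2398, 2189, 2734 and 2463 CPM in NXT-Exo 1 to 5 and at 2187 CPM in Ctl-Exo 5. rno-miR-100-5p, which has the seed of miR-99, was at 1735, 1898, 1405, 1910 and 1588 CPM in NXT-Exo 1 to 5 and at 1552 CPM in Ctl-Exo 5. miR-99b was the only one of the 7 for which Ctl-Exo 5 lay outside the NXT-Exo range, just under NXT-Exo 3. For miR-100, NXT-Exo 3 was below Ctl-Exo 5 and the other NXT-Exo libraries were above it.

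The miR-125 rows were the least abundant of the 7 and varied more from library to library. rno-miR-125b-5p was at 999, 1032, 500.0, 1327 and 1468 CPM in NXT-Exo 1 to 5 and at 1027 CPM in Ctl-Exo 5. rno-miR-125a-5p was at 687, 1139, 667, 669.9 and 1479 CPM in NXT-Exo 1 to 5 and at 922 CPM in Ctl-Exo 5. NXT-Exo 5 was highest for both, while NXT-Exo 4 was high for miR-125b and low for miR-125a. The NXT-Exo means were 1065 ± 373 CPM for miR-125b and 928 ± 368 CPM for miR-125a (SD, n = 5).

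**Figure D1:**
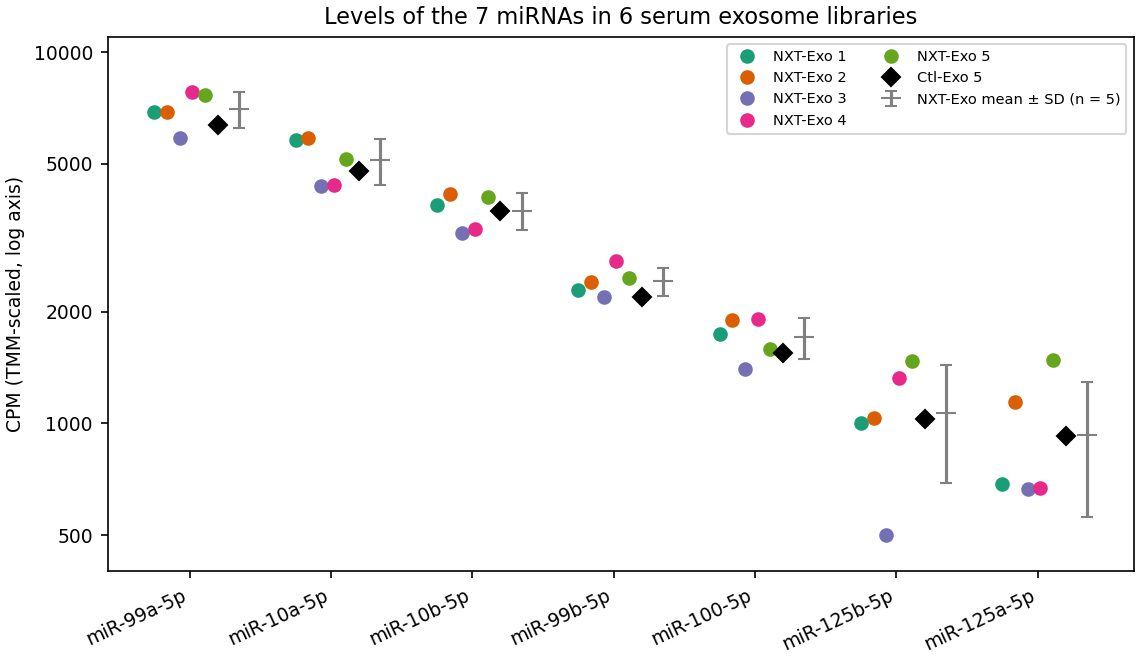
CPM on a log axis for the 7 microRNAs in the 5 NXT-Exo libraries (circles) and Ctl-Exo 5 (black diamonds), with the NXT-Exo mean and SD in grey. The black diamond lies inside the NXT-Exo circles for 6 of the 7 and just under the lowest circle, 2187 against 2189 CPM, for miR-99b.

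NXT-Exo 3 had the lowest level of the 5 NXT-Exo libraries for 7 of the 7 rows. Some of these were near ties with NXT-Exo 4, as for miR-125a (667 against 669.9 CPM) and miR-10a (4366 against 4399 CPM). The share of all tested rows that were lowest in NXT-Exo 3 is not given here, so this count has no background. NXT-Exo 3 also had the highest summed level of 4 red blood cell microRNAs, at 260257 CPM. NXT-Exo 1, 2, 4 and 5 had 157715 to 233981 CPM and Ctl-Exo 5 had 210386 CPM. Nearly all of this sum was miR-486, at 257143 CPM in NXT-Exo 3. miR-144-3p and miR-144-5p were also highest there, but miR-451-5p was not, at 2266 CPM against 3239 CPM in NXT-Exo 4. The part of these markers in the result was not tested. The levels ran in the order miR-99a, miR-10a, miR-10b, miR-99b, miR-100, miR-125b and miR-125a. For 20 of the 21 pairs the order was the same in 6 of 6 libraries, and each of these pairs gave p = 0.03125 in an exact two-sided sign-flip permutation test, the smallest that 6 libraries allow, or 0.0328 after Benjamini-Hochberg adjustment over the 21 pairs. The exception was miR-125b against miR-125a, with miR-125b higher in 3 of 6 libraries (exact permutation p = 0.4375), and these neighbours did not differ beyond their spread. These tests take libraries as independent units. Since the division of serum among libraries is not stated, they may describe repeat libraries and not rats. The step from miR-99a to miR-10a was 1.37-fold, that from miR-10a to miR-10b 1.35-fold, that from miR-10b to miR-99b 1.57-fold, that from miR-99b to miR-100 1.42-fold and that from miR-100 to miR-125b 1.66-fold, as geometric means of the 6 ratios within libraries.

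None of the 7 rows was called between NXT-Exo and Ctl-Exo 5. The edgeR quasi-likelihood test called 0 of the 7 at an adjusted p under 0.05 and at least 2-fold, beside 0 of 467 microRNAs tested in the whole table (0% called), where 24 of the 467 had an unadjusted p under 0.05 in edgeR and 29 in DESeq2. With 1 Ctl-Exo library used, the spread in this test comes from the 5 NXT-Exo libraries, and Ctl-Exo 5 is assumed to vary like them. The adjusted p-values of the 7 ran from 0.947 to 0.999 in the edgeR test. The log2 fold changes, NXT-Exo over Ctl-Exo 5, ran from 0.00 to 0.14 with a median of 0.10, against a median of 0.04 over all 467. All 7 were above 0, as were 54.2% of the 467, and since they share the 1 control library they are not 7 independent values.

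For miR-99a the log2 fold change was 0.14 ± 0.22 (SE), with a 95% interval of -0.34 to 0.62. For miR-99b it was 0.14 ± 0.21, with an interval of -0.32 to 0.60, and for miR-100 it was 0.14 ± 0.23, with an interval of -0.36 to 0.63. For miR-10a it was 0.10 ± 0.24 (interval -0.42 to 0.61) and for miR-10b 0.00 ± 0.22 (interval -0.47 to 0.48). The intervals of miR-10/99/100 thus reached from -0.47 to 0.63 on the log2 scale, if Ctl-Exo varies like NXT-Exo, which was not measured. For miR-125b the log2 fold change was 0.05 ± 0.41 (interval -0.85 to 0.96) and for miR-125a 0.01 ± 0.40 (interval -0.86 to 0.89). The intervals of the miR-125 rows were wider and came close to a 2-fold change in both directions. These intervals are not adjusted for the number of rows tested, so they do not give the smallest change that would have been called.

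By position alone, the lowest of the 6 values was that of Ctl-Exo 5 for 1 of the 7 (miR-99b), where 21.6% of the 467 tested had it lowest, and the highest was that of Ctl-Exo 5 for 0 of the 7, where 15.8% had it highest. Without NXT-Exo 3 the first count went from 1 to 3, with miR-99a, miR-99b and miR-100, where 25.3% of the 471 then tested were lowest in Ctl-Exo 5, and without NXT-Exo 2 it went to 0.

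**Figure D2:**
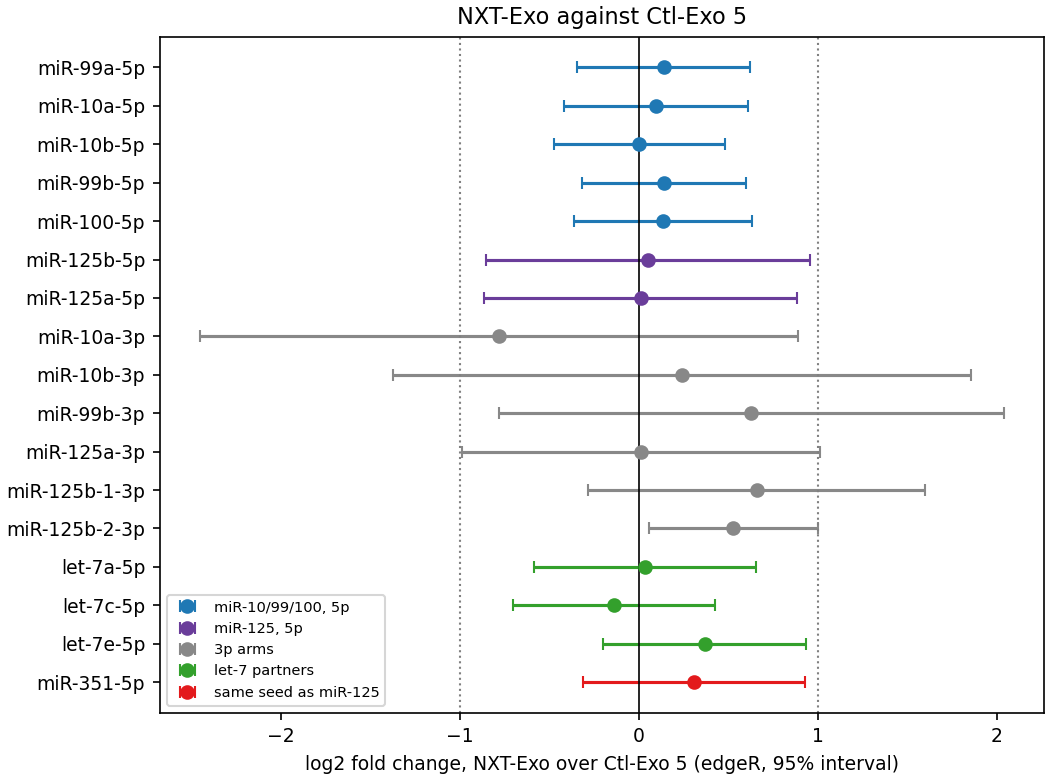
Log2 fold change of NXT-Exo over Ctl-Exo 5 (edgeR) with its 95% interval for the 7 microRNAs, their 3p arms, the let-7 partners of their clusters and miR-351-5p, which has the miR-125 seed. The dotted lines mark a 2-fold change. The intervals of the 7 all cover 0, and among the others shown that of miR-125b-2-3p, 0.05 to 1.00, does not.

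Summed, the miR-10/99/100 set took 2.13, 2.05, 1.59, 2.21 and 2.12% of the listed reads in NXT-Exo 1 to 5 and 1.81% in Ctl-Exo 5 (95% Wilson interval 1.79 to 1.83%, which covers counting error only). The miR-125 rows took 0.174, 0.210, 0.109, 0.219 and 0.299% in NXT-Exo 1 to 5 and 0.189% in Ctl-Exo 5 (interval 0.183 to 0.196%). In both sums Ctl-Exo 5 lay between NXT-Exo 3 and the highest NXT-Exo library. In CPM, the NXT-Exo mean of the miR-10/99/100 sum was 0.10 above Ctl-Exo 5 on the log2 scale, where the SD among the NXT-Exo libraries was 0.13. The miR-125 sum was 0.03 above Ctl-Exo 5, where the SD was 0.49. This last difference had no stable direction, at -0.15 without NXT-Exo 5, -0.00012 without NXT-Exo 2, 0.09 without NXT-Exo 1 and 0.17 without NXT-Exo 3, and that of the miR-10/99/100 sum was 0.15 without NXT-Exo 3.

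The ratio of the miR-10/99/100 sum to the miR-125 sum does not depend on the scaling of the library. It was 12.2, 9.78, 14.6, 10.1 and 7.10 in NXT-Exo 1 to 5 and 9.56 in Ctl-Exo 5. The lowest and the highest ratio were both in NXT-Exo libraries, with Ctl-Exo 5 between them. On the log2 scale the NXT-Exo mean was 3.39 ± 0.39 (SD, n = 5) against 3.26 in Ctl-Exo 5. The difference of 0.13 was 0.01 without NXT-Exo 3, 0.08 without NXT-Exo 1 and 0.27 without NXT-Exo 5. Within the miR-10/99/100 set, the ratio of the miR-10 rows to the miR-99 and miR-100 rows was 0.886, 0.895, 0.806, 0.621 and 0.788 in NXT-Exo 1 to 5 and 0.842 in Ctl-Exo 5. The low value in NXT-Exo 4 went with both a low miR-10a and a high miR-99a in that library.

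**Figure D3:**
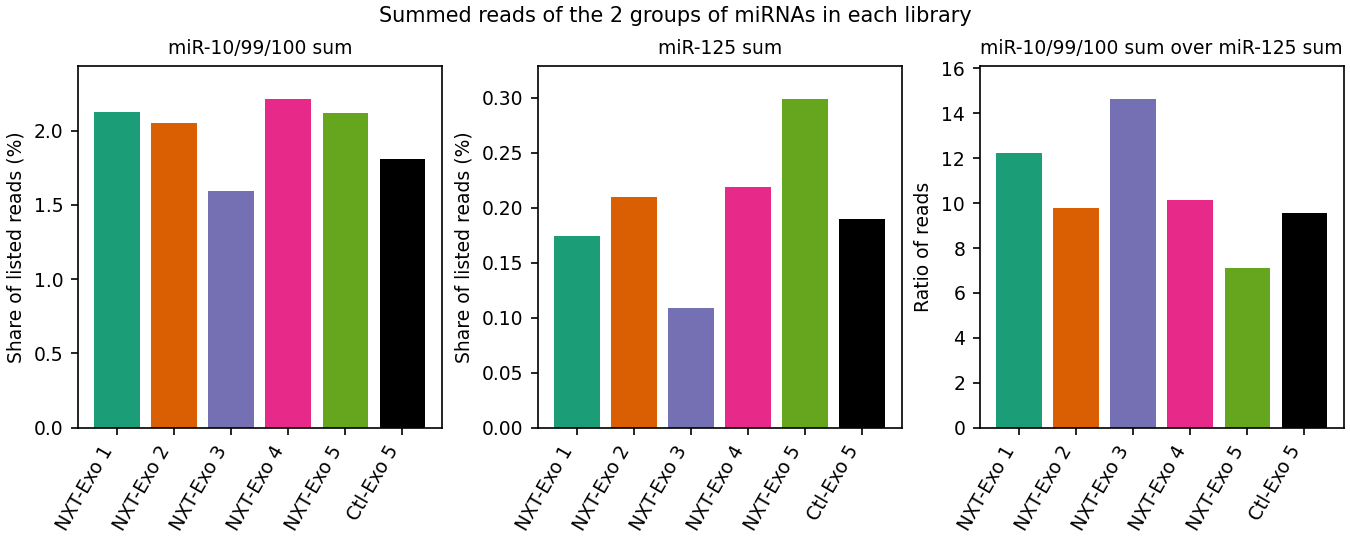
Share of the listed reads (%) of the miR-10/99/100 set and of the miR-125 rows, and the ratio of their reads, as 1 bar per library with axes from 0. The share of miR-10/99/100 runs from 1.59 to 2.21%, that of miR-125 from 0.109 to 0.299%, and Ctl-Exo 5 lies inside the NXT-Exo range in the 3 panels.

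The members of the miR-10/99/100 set kept steadier levels than the miR-125 rows. The SD of log2 CPM over the 5 NXT-Exo libraries ran from 0.12 for miR-99b to 0.21 for miR-10a, with a median of 0.16. It was 0.53 for miR-125a and 0.61 for miR-125b. Among the 92 other microRNAs that averaged 1000 reads or more, this SD ran from 0.05 to 1.02 with a median of 0.19, and 1 of the 92 exceeded that of miR-125b. The miR-125b value rested on NXT-Exo 3, without which it was 0.27, and that of miR-125a fell to 0.38 without NXT-Exo 5.

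Ratios within a library had the same pattern. Each pair outside miR-10/99/100 holds a miR-125 row, so this is not separate from the wide spread of those rows. Over the 6 libraries, the SD of the log2 ratio ran from 0.07 to 0.24 for the 10 pairs inside miR-10/99/100, with a median of 0.18. It ran from 0.37 to 0.52 for the 10 pairs of a miR-10/99/100 row with a miR-125 row, with a median of 0.46, and was 0.50 for miR-125b over miR-125a. The counting error of a ratio was at most 0.06 on the log2 scale for any pair in any library, below each of these SDs. The pairs share members and libraries, so these values are a description and the difference in spread was not tested. The steadiest pair was miR-99a over miR-99b, at a ratio of 2.91 with an SD of 0.07 on the log2 scale, which share a seed but come from different clusters. The next was miR-10a over miR-10b, from different Hox clusters, at 1.35 with an SD of 0.09. Without NXT-Exo 4 the median SD inside miR-10/99/100 was 0.10, and without NXT-Exo 3 the lowest SD of a pair between the groups was 0.16, inside the range of the miR-10/99/100 pairs.

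**Figure D4:**
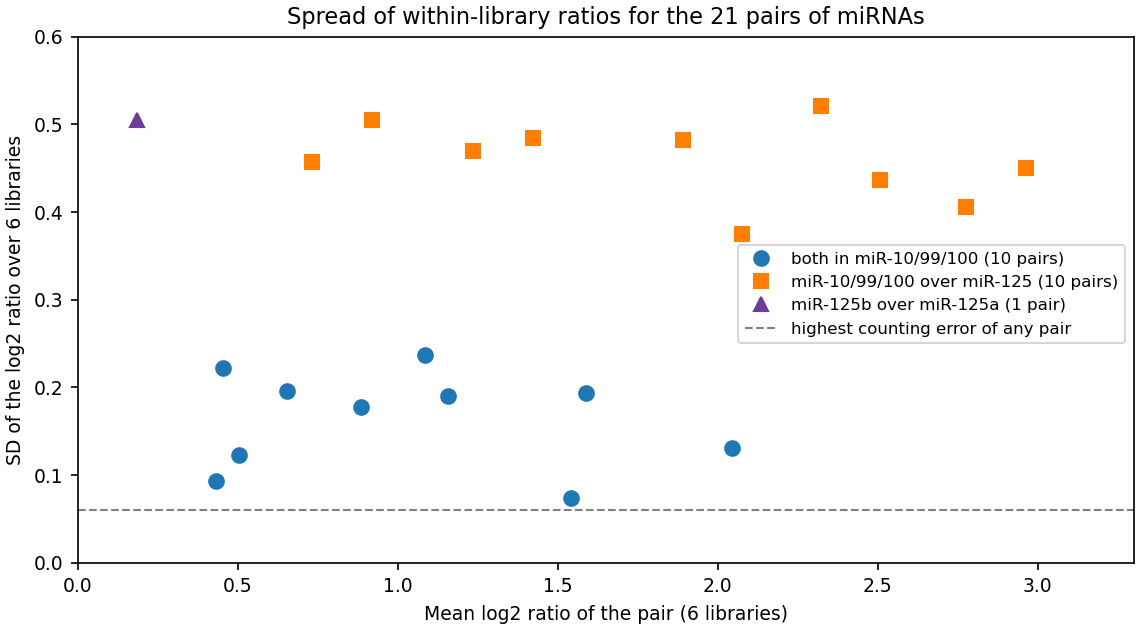
Each point is 1 of the 21 pairs, with the mean log2 ratio of the higher over the lower microRNA on the x axis and the SD of that ratio over 6 libraries on the y axis. Pairs inside miR-10/99/100 (circles) lie at or below 0.24 and pairs with a miR-125 row at or above 0.37, and the dashed line is the highest counting error of any pair, 0.06.

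Genes of 1 cluster are transcribed together, so the ratios of cluster partners were compared. miR-99b over miR-125a, both from the let-7e cluster, was 3.32, 2.10, 3.28, 4.08 and 1.67 in NXT-Exo 1 to 5 and 2.37 in Ctl-Exo 5. miR-99b over let-7e-5p of the same cluster was 14.0, 12.9, 10.1, 12.9 and 9.75 in NXT-Exo 1 to 5 and 13.7 in Ctl-Exo 5. The first ratio spanned 2.45-fold over the NXT-Exo libraries and the other 1.43-fold, with Ctl-Exo 5 inside the range in both. The sum of miR-99a and miR-100 over miR-125b, from the other 2 clusters, was 8.65, 8.54, 14.5, 7.33 and 6.29 in NXT-Exo 1 to 5 and 7.72 in Ctl-Exo 5, with NXT-Exo 3 standing above the rest. The let-7 partners themselves are widely expressed regulators of growth and timing. rno-let-7a-5p was at 12748 ± 2818 CPM in NXT-Exo (SD, n = 5) and 12441 CPM in Ctl-Exo 5, and rno-let-7c-5p at 11943 ± 2210 and 13146 CPM. rno-let-7e-5p was at 163, 186, 216, 213 and 253 CPM in NXT-Exo 1 to 5 and 160 CPM in Ctl-Exo 5, below them all, at a log2 fold change of 0.37 ± 0.26 (edgeR, adjusted p = 0.833). let-7a comes from several genes and let-7c from more than 1, so their levels are not those of these clusters alone. Of the 3 let-7 partners 0 were called, and of their 3 other arms 2 were listed and 0 reached the filter.

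The 3p arms of miR-125b are printed because they, unlike the 5p arm, tell the 2 miR-125b genes apart. The capitals mark bases 2 to 8.
rno-miR-125b-1-3p: aCGGGTTAggctcttgggagct
rno-miR-125b-2-3p: aCAAGTCAggctcttgggacct
They differ at 4 of 22 bases (G3A, G4A, T7C and G20C, counted from the 5′ end of miR-125b-1-3p). rno-miR-125b-2-3p was the most abundant partner arm, at 282, 296, 299.9, 317 and 348 CPM in NXT-Exo 1 to 5 and 214 CPM in Ctl-Exo 5. All 5 NXT-Exo values exceeded that of Ctl-Exo 5. The log2 fold change was 0.53 ± 0.22 (SE; interval 0.05 to 1.00), and it did not pass the test (edgeR, unadjusted p = 0.0318, adjusted p = 0.740). rno-miR-125b-1-3p, the arm of the gene beside miR-100, was at 23.7, 27.7, 27.9, 18.0 and 30.8 CPM in NXT-Exo 1 to 5 and 16.3 CPM in Ctl-Exo 5, again below them all. Its log2 fold change was 0.66 ± 0.43 (interval -0.28 to 1.60; edgeR, adjusted p = 0.784). Both 3p arms of miR-125b were thus among the 21.6% of microRNAs that were lowest in Ctl-Exo 5.

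The 5p arm of miR-125b did not keep a fixed ratio to its 3p arm. miR-125b-5p over miR-125b-2-3p was 3.54, 3.48, 1.67, 4.19 and 4.22 in NXT-Exo 1 to 5 and 4.80 in Ctl-Exo 5. Ctl-Exo 5 was above all 5 NXT-Exo libraries, and the low value of NXT-Exo 3 came with its low miR-125b-5p and not with its miR-125b-2-3p, which was in the middle of the 5. The 5p reads hold both genes, so this ratio does not describe 1 precursor. miR-125b-2-3p over miR-125b-1-3p was 11.9, 10.7, 10.8, 17.6 and 11.3 in NXT-Exo 1 to 5 and 13.1 in Ctl-Exo 5, with the 18.0 CPM of miR-125b-1-3p in NXT-Exo 4 behind the highest value.

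**Figure D5:**
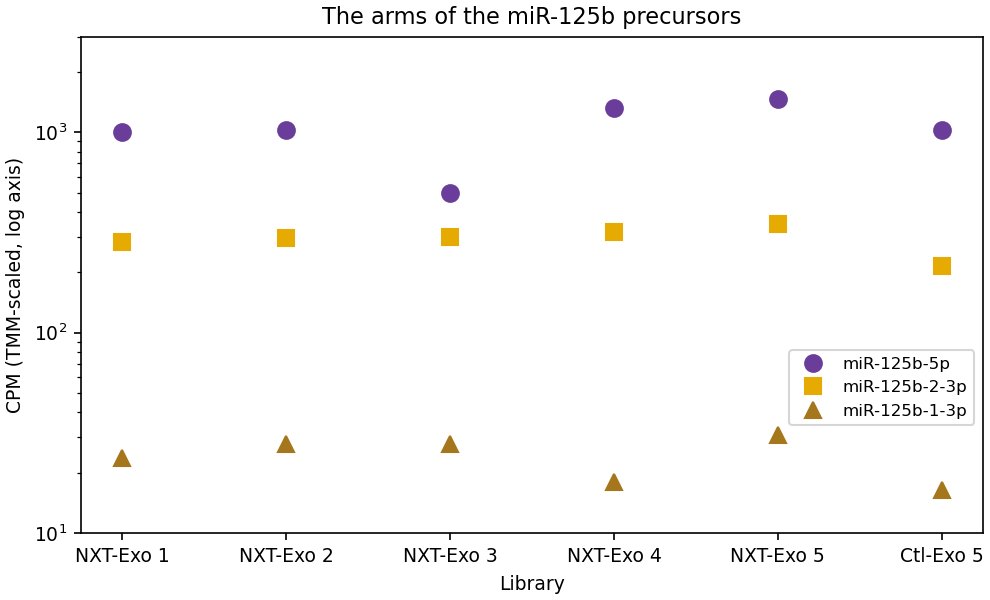
CPM on a log axis of the miR-125b 5p arm and the 2 3p arms in each library. miR-125b-2-3p stays between 282 and 348 CPM in the NXT-Exo libraries and is 214 CPM in Ctl-Exo 5, while miR-125b-5p falls to 500.0 CPM in NXT-Exo 3 and reaches 1468 CPM in NXT-Exo 5.

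The other partner arms were rare. rno-miR-125a-3p was at 29.5 ± 9.90 CPM in NXT-Exo (SD, n = 5) and 28.9 CPM in Ctl-Exo 5, rno-miR-99b-3p at 10.2 ± 2.70 and 6.53 CPM, and rno-miR-10b-3p at 10.2 ± 4.87 and 8.71 CPM. rno-miR-10a-3p was at 6.67, 4.82, 5.40, 7.04 and 2.09 CPM in NXT-Exo 1 to 5 and 8.71 CPM in Ctl-Exo 5, above them all (log2 fold change -0.78 ± 0.76; edgeR, adjusted p = 0.873). Of the 8 partner arms looked for, 7 were listed, 6 were tested and 0 passed the test. rno-miR-99a-3p had 6 reads in all libraries together. In each library the 5p arm exceeded the 3p arm for every precursor with both arms tested, from 15.6-fold for miR-125a in NXT-Exo 4 to 2462-fold for miR-10a in NXT-Exo 5, apart from the lower ratios of miR-125b-5p to miR-125b-2-3p given above.

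The miR-125 seed was not held by the miR-125 rows alone. Reading the seed of each row from its listed sequence, CCCTGAG also stood in rno-miR-351-5p and in 2 rows named without the rat prefix. The miR-125 rows held 73.0% of the reads of all rows with this seed. miR-351 is a rodent relative of miR-125. rno-miR-351-5p, taken up for its seed after its values were seen, was at 687, 762, 695, 483 and 883 CPM in NXT-Exo 1 to 5 and 568 CPM in Ctl-Exo 5. NXT-Exo 4 was below Ctl-Exo 5 and the other NXT-Exo libraries above it, with a log2 fold change of 0.31 ± 0.28 (edgeR, adjusted p = 0.873). For the other seeds the 7 rows held nearly all reads of the rows listed with that seed. The share was 99.8% for the seed of miR-10a, 99.9% for that of miR-99 and miR-100, and 100% for that of miR-10b. The starts of single reads were not examined, so these shares go by row. miR-10-x, with 141 reads, had the seed of miR-10a as listed but matched miR-10b over 20 bases.

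Rows without the rat prefix that name these families were few in reads, and what their endings stand for is not given in the sources used here. miR-125-y, which is miR-125b-2-3p with 2 more bases at its 3′ end, was at 17.3, 25.3, 13.0, 14.9 and 12.3 CPM in NXT-Exo 1 to 5 and 5.44 CPM in Ctl-Exo 5, below them all (log2 fold change 1.60 ± 0.62; edgeR, unadjusted p = 0.0245, adjusted p = 0.740). miR-99-x, which is miR-99a with 1 more base at its 5′ end, 1 fewer at its 3′ end and so another seed, was at 10.6 ± 1.72 CPM in NXT-Exo (SD, n = 5) and 4.90 CPM in Ctl-Exo 5 (edgeR, adjusted p = 0.742). miR-125-x, which differs from miR-125a by T5G and T22A, was at 50.0, 9.64, 90.4, 5.47 and 17.2 CPM in NXT-Exo 1 to 5 and 11.98 CPM in Ctl-Exo 5. Its high values were in NXT-Exo 1 and 3, and its lowest was in NXT-Exo 4, while miR-125a was at nearly the same low level in these 3 libraries. How reads were divided between the pair of rows is not known. Of the 8 such rows, 5 were tested and 0 passed the test.

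The other microRNAs of the Hox clusters were at far lower levels than miR-10. Of 8 names looked for, 4 were listed and 3 tested, with 0 passing the test. rno-miR-196b-5p was at 25.4 ± 6.31 CPM in NXT-Exo (SD, n = 5) and 32.1 CPM in Ctl-Exo 5, and rno-miR-196a-5p at 5.56 ± 2.80 and 9.26 CPM. miR-615-y was at 135 ± 20.7 CPM and 111 CPM (edgeR, adjusted p = 0.873).

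Over the 6 libraries, the miR-10/99/100 sum ran most like miR-322-y (Pearson r = 0.868 of log2 CPM), rno-miR-28-3p (r = 0.823) and rno-miR-221-3p (r = 0.760). The miR-125 sum ran most like rno-miR-221-3p (r = 0.954), rno-miR-29b-3p (r = 0.889) and rno-miR-181c-3p (r = 0.829). These were the highest of 222 candidates (mean of 100 reads or more), the points share libraries and scaling, and the values are a description. rno-miR-221-3p was at 69.8 ± 14.1 CPM in NXT-Exo (SD, n = 5) and 74.1 CPM in Ctl-Exo 5.

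Markers of the cells that may give vesicles to serum were read beside these levels. The 2 arms of the endothelial miR-126a summed to 1154 to 1498 CPM over the NXT-Exo libraries, with 1252 CPM in Ctl-Exo 5. The 3 muscle microRNAs summed to 81.3 to 153 CPM over the NXT-Exo libraries, with 104 CPM in Ctl-Exo 5. This muscle sum joins markers that went in opposite directions. In Ctl-Exo 5, miR-1-3p was above all NXT-Exo libraries, miR-133a-3p was below them all and miR-206-3p lay inside their range. The 4 platelet and white blood cell microRNAs gave 20705 to 24462 CPM over the NXT-Exo libraries, with 25676 CPM in Ctl-Exo 5 and 2 of the 4 (miR-223-3p and miR-142-5p) at their highest there. None of the 15 markers passed the test (edgeR, adjusted p under 0.05), and their part in the levels of the 7 rows was not tested.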

How the data were processed

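Small RNA of serum exosomes was sequenced in 6 labelled libraries (5 NXT-Exo, 1 Ctl-Exo). Per the labels, the authors prepared TruSeq small RNA libraries, removed adapters, low-complexity reads and other RNA classes with ACGT101-miR, and deposited read counts per microRNA, not normalized, beside TPM. The submitters' processing notes name build Rnor_6.0, and the aligner and microRNA database release are not given in the sources used here. The deposited TPM equal the counts times 1 constant per library, with 0 reads written as 0.01, and served only as an alternative. The table's 8 other columns of per-sample values, counts and TPM headed Ctl-Exo 1 to 4, match no label used here and were not used, so the design of 5 libraries against 1 comes from the labels and not from the table.

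From the counts, TMM factors (edgeR 4.0.16, R 4.3.3) were computed over the 865 of 867 rows with a read, and the 467 rows with a mean of at least 10 reads were tested with edgeR's quasi-likelihood test and Benjamini-Hochberg adjustment. Calls needed an adjusted p under 0.05 and at least 2-fold. The SE is the log2 fold change over the root of F. Pairs were tested by exact sign flips over libraries. No pair of libraries agreed within sampling noise (chi-square per degree of freedom 45.0 to 328.3). 1 read equals 0.261 to 0.782 CPM, and counting intervals cover counting error only. Alternatives were DESeq2 1.42.0, other scalings, no filter and leaving out each NXT-Exo library. The edgeR fit was tested on simulated counts, with the median fold change as the check. Named microRNAs were the 7 rows, their other arms, cluster partners, Hox-cluster microRNAs, rows without the rat prefix, the 3 rows most like each sum and cell-type markers. Members and lists were chosen with earlier results of these data known.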

Additional observations from a re-analysis of the deposited data

Results flagged for a closer look

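In 3 of 16 sets of 5 NXT-Exo values examined, 1 library lay further from the others than Dixon's 95% limit of 0.71 of the range allows, and each time it was NXT-Exo 3. The miR-10/99/100 sum was 17075 CPM in NXT-Exo 3, with the next value at 20204 CPM, a gap of 0.750 of the range. The ratio of miR-99a and miR-100 to miR-125b was 14.5 in NXT-Exo 3, with the next at 8.65, a gap of 0.714 of the range. The ratio of miR-125b-5p to miR-125b-2-3p was 1.67 in NXT-Exo 3, with the next at 3.48, a gap of 0.7104 of the range. Chance flags about 1 in 20 such sets, and the 2 ratios share the miR-125b-5p value, so the 3 are not independent. All 16 sets were taken on the linear scale, where the 2 ratios lie only just above the limit, and log2 values were not examined.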

How the results depend on the processing

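The number of microRNAs called was 0 in each of the 10 alternatives, with 17 to 46 at an unadjusted p under 0.05. Of 70 log2 fold changes of the 7 rows under those alternatives, 61 kept their direction and 9 turned. All 9 were of miR-10b, miR-125a or miR-125b, which started near 0, at 0.00, 0.01 and 0.05. The lowest value reached was -0.22. miR-10b went from 0.00 to -0.0064 with DESeq2 size factors and -0.00067 in the DESeq2 Wald test, and from -0.031 to 0.057 when an NXT-Exo library was left out. miR-125a ran from -0.22 (without NXT-Exo 5) to 0.11 and miR-125b from -0.092 (without NXT-Exo 5) to 0.24 (without NXT-Exo 3) when a library was left out. The count of the 7 rows with Ctl-Exo 5 outside the NXT-Exo range, 1 in CPM, was 0 with DESeq2 size factors, with listed totals and with deposited TPM, and 0 to 3 when a library was left out. The cause was not tested. With the 5 NXT-Exo libraries alone, 0 of the 21 pairs passed, since the smallest exact p is then 0.0625, although 20 kept their order in 5 of 5. The alternatives on TPM totals and on leaving out libraries for the spread of ratios were chosen after seeing the data. No paired analysis was possible because only replicate number 5 occurs in both groups of labelled libraries, the columns headed Ctl-Exo 1 to 4 being not used here. With 1 Ctl-Exo library used, no spread of Ctl-Exo was estimated.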
